A study of Rattus norvegicus albus with 14 samples.

Results

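The cardiac myosin genes described here are the 7 genes that encode the heavy and light chains of heart muscle myosin: Myh6, Myh7 and Myh7b for the heavy chains, and Myl2, Myl3, Myl4 and Myl7 for the light chains. They were taken by symbol from deposited count tables that hold 32545 rat genes, and each symbol matched 1 gene. Their RNA was measured in ventricular heart muscle cells of 1-day-old Sprague-Dawley rats (neonatal rat ventricular myocytes), which were pooled, preplated to remove fibroblasts, per the labels' protocol, and grown on fibronectin in a serum-free medium with insulin. The treated cells received 10 µmol/L rosiglitazone in 1% DMSO for 0.5, 24 or 48 h, with 2 libraries each, and the control cells received 1% DMSO for 0.5 h, with 1 library. Rosiglitazone, an antidiabetic drug of the thiazolidinedione class, is a ligand of the nuclear receptor PPARγ. DMSO libraries of 24 and 48 h were not analysed here, so in each comparison between times the effects of the drug and of longer culture cannot be told apart.

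Myosin is the motor of the sarcomere, the contractile unit of muscle. Each motor holds a pair of heavy chains, which split ATP and pull on actin, and each heavy chain carries an essential and a regulatory light chain on its neck. Rodent ventricles change over from the slower β heavy chain (Myh7) to the faster α heavy chain (Myh6) around birth under the influence of thyroid hormone, and in many forms of stress the heart turns back toward Myh7. The genes Myh6 and Myh7 lie side by side in the rat genome (RefSeq, assembly GRCr8, used here for names and neighbours only).

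The libraries held 10886559 to 28074620 counts, and the shallowest was replicate 2 of 48 h. Levels are given as CPM, counts relative to the TMM-scaled library size, which are not corrected for transcript length. Where counts of different genes are set against each other below, the size of the ratio has no meaning of its own, and only its change between libraries is read. The libraries of 24 h stood apart from each other. The share of tested genes more than 2-fold apart between replicates was 13.1% at 0.5 h, 36.0% at 24 h and 24.9% at 48 h, and of the 7 myosin genes 1, 6 and 6 did so at these times. At 24 h replicate 1 was the higher one, with a median log2 difference of 2.30 over the myosin genes. At 48 h it was the lower one, with a median of -1.76. The labels do not state whether replicate libraries are separate cultures, so the p-values reflect a spread that may be technical.

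All 3 heavy chain genes had their lowest levels at 48 h, and Myh6 and Myh7 fell relative to 0.5 h of rosiglitazone. The size of the fall rests on single libraries of 48 h: without replicate 1 the log2 fold change was -5.23 for Myh6 and -5.02 for Myh7, and without replicate 2 it was -6.89 and -7.65. Myh6, the α heavy chain, was at 963 CPM in DMSO, at 1212 and 1209 CPM in rosiglitazone at 0.5 h, at 385 and 90.5 CPM at 24 h and at 10.2 and 33.0 CPM at 48 h. The levels of the 3 rosiglitazone times did not overlap, and both libraries of 0.5 h lay above DMSO. Myh6 averaged 21.6 ± 16.1 CPM at 48 h and 1210 ± 2.41 CPM at 0.5 h (SD, n = 2 each), a 56.4-fold lower level (log2 fold change -5.82 ± 0.88 SE, edgeR adjusted p = 0.016).

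Myh7, the β heavy chain of slow muscle and of the fetal rodent ventricle, was at 1307 CPM in DMSO, at 2913 and 2373 CPM in rosiglitazone at 0.5 h, at 716 and 129 CPM at 24 h and at 13.2 and 83.3 CPM at 48 h. Its times did not overlap either, and the replicates of 48 h were further apart than those of Myh6. It averaged 48.2 ± 49.6 CPM at 48 h and 2643 ± 382 CPM at 0.5 h, a 55.0-fold lower level (log2 fold change -5.78 ± 1.14 SE, edgeR adjusted p = 0.031).

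Myh7b, a slow-type heavy chain gene whose intron hosts the microRNA gene Mir499a, was scarce in every library. It was at 4.60 CPM in DMSO, at 19.6 and 3.20 CPM in rosiglitazone at 0.5 h, at 4.33 and 3.24 CPM at 24 h and at 1.06 and 1.21 CPM at 48 h. The value of 19.6 CPM rests on 556 counts against 88 in replicate 2, so that the libraries of 0.5 h span those of DMSO and 24 h, while both of 48 h, with 29 and 13 counts, lie below them. Its log2 fold change of 48 h over 0.5 h was -3.33 ± 0.93 SE and missed the threshold (edgeR adjusted p = 0.081), and without replicate 1 of 0.5 h it was -1.51. In the annotation of GRCr8 Myh7b overlaps the genes Gss and Trpc4ap, and the strand setting of the counting is not given in the sources used here, so reads of overlapping genes may be shared.

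**Figure D1:**
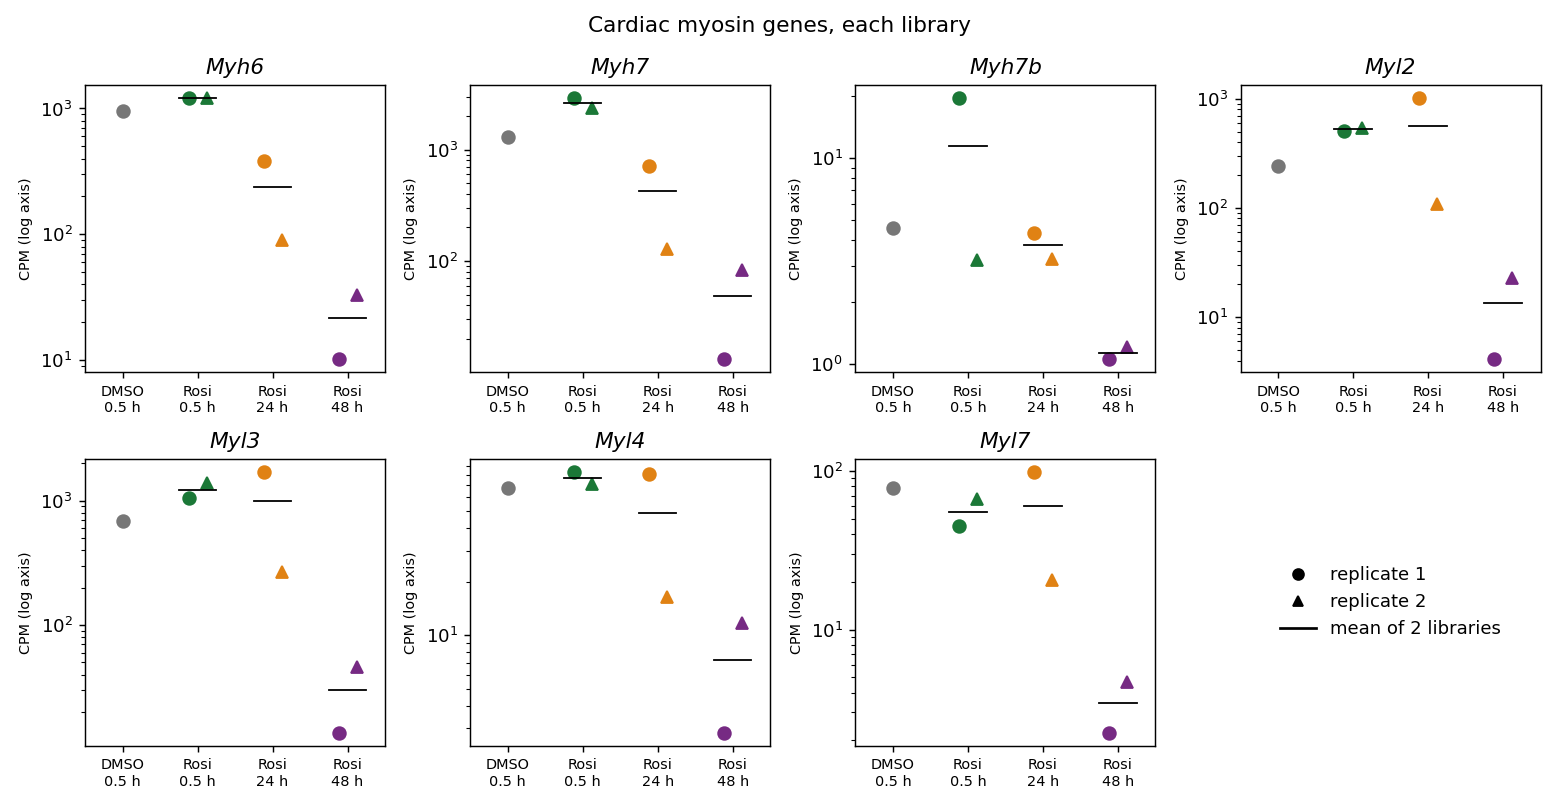
Each panel shows 1 myosin gene, with CPM on a log axis against the 4 groups (DMSO 0.5 h, then rosiglitazone 0.5, 24 and 48 h). Circles and triangles are replicates 1 and 2 and bars are means of 2 libraries, and in every panel both 48 h libraries lie under all others, while at 24 h the circle of each light chain gene is near or above the 0.5 h level and the triangle under it.

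The 4 light chain genes were likewise lowest at 48 h, and 3 of them, Myl2, Myl3 and Myl7, fell relative to 0.5 h. Their size also rests on single libraries, with log2 fold changes of -4.57, -4.74 and -3.61 for Myl2, Myl3 and Myl7 without 48 h replicate 1 and of -6.98, -6.47 and -4.63 without 48 h replicate 2. Myl2, the regulatory light chain of the ventricle, was at 240 CPM in DMSO, at 505 and 543 CPM in rosiglitazone at 0.5 h, at 1013 and 109 CPM at 24 h and at 4.14 and 22.6 CPM at 48 h. Its 24 h libraries lie on either side of both earlier groups, with replicate 1 the highest and replicate 2 lower than any 0.5 h library. It averaged 13.4 ± 13.1 CPM at 48 h and 524 ± 27.0 CPM at 0.5 h, 39.8-fold lower (log2 fold change -5.31 ± 1.20 SE, edgeR adjusted p = 0.046).

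Myl3, the essential light chain of the ventricle and of slow muscle, was at 691 CPM in DMSO, at 1042 and 1377 CPM in rosiglitazone at 0.5 h, at 1706 and 268 CPM at 24 h and at 13.6 and 46.2 CPM at 48 h. The order of the libraries was that of Myl2. The level at 48 h was 29.9 ± 23.1 CPM, against 1209 ± 237 CPM at 0.5 h, 40.6-fold lower (log2 fold change -5.34 ± 1.00 SE, edgeR adjusted p = 0.027).

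The atrial light chain genes are also expressed in the immature ventricle. Myl7, the atrial regulatory light chain, was at 78.3 CPM in DMSO, at 44.8 and 66.1 CPM in rosiglitazone at 0.5 h, at 99.0 and 20.6 CPM at 24 h and at 2.23 and 4.65 CPM at 48 h. It was the one myosin gene with both 0.5 h rosiglitazone libraries below DMSO. It averaged 3.44 ± 1.71 CPM at 48 h and 55.5 ± 15.1 CPM at 0.5 h, 16.5-fold lower (log2 fold change -4.04 ± 0.79 SE, edgeR adjusted p = 0.030).

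Myl4, the atrial and embryonic essential light chain, was at 67.8 CPM in DMSO, at 83.4 and 70.9 CPM in rosiglitazone at 0.5 h, at 81.0 and 16.4 CPM at 24 h and at 2.82 and 11.7 CPM at 48 h. Both 48 h libraries were below the 0.5 h ones, with a mean of 7.27 ± 6.29 CPM against 77.2 ± 8.85 CPM, but the log2 fold change of -3.44 ± 0.89 SE did not pass (edgeR adjusted p = 0.064), and it was -2.76 without 48 h replicate 1 and -4.77 without replicate 2. Myl4 overlaps Cdc27 in the annotation of GRCr8.

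For 48 h against 0.5 h of rosiglitazone as a whole, 5 of the 7 myosin genes passed the adjusted threshold of 0.05, all lower, where 4.62% of the 15655 tested genes were called lower. In 7 of 7 both libraries of 48 h lay below both of 0.5 h, against 34.4% of tested genes. The median log2 fold change was -5.31 over the myosin genes and -0.07 over all tested genes. All 7 also had both 48 h libraries under the DMSO library, as did 43.2% of tested genes. The fold change was negative for each of the 7 genes in all 15 settings tried, but the calls were not as stable. With 1 library left out, 0 genes passed without rosiglitazone 0.5 h replicate 1, without rosiglitazone 0.5 h replicate 2 and without 48 h replicate 1, 1 passed without 48 h replicate 2, 4 without DMSO, and 7 without either library of 24 h.

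**Figure D2:**
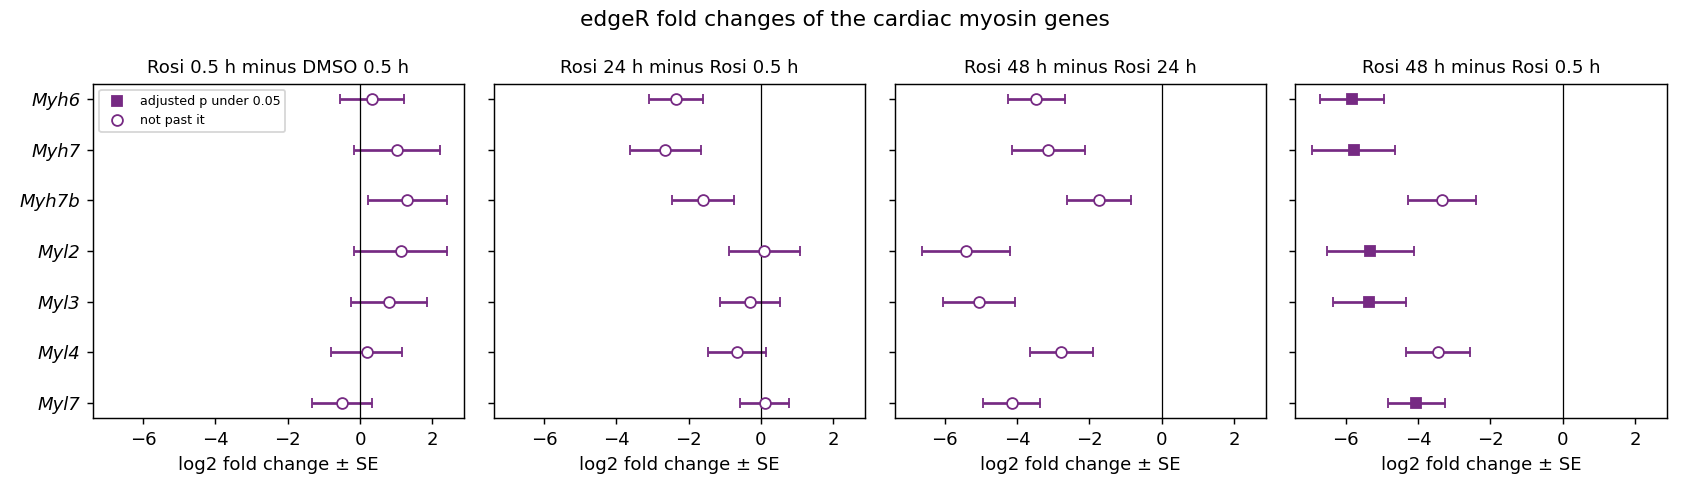
Log2 fold change of each myosin gene (x axis, bars ± SE from the edgeR fit) in the 4 comparisons. Filled squares passed the adjusted threshold of 0.05: 5 genes in the panel of 48 h minus 0.5 h and 0 in the other panels.

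At 24 h 0 of the 7 myosin genes passed the test, and no difference between heavy and light chain genes was tested. Comparing 24 h with 0.5 h of rosiglitazone, Myh6 was 5.09-fold lower (log2 fold change -2.35 ± 0.75 SE, unadjusted p = 0.015, edgeR adjusted p = 0.20) and Myh7 6.25-fold lower (-2.64 ± 0.98 SE, unadjusted p = 0.029, adjusted p = 0.26). Without 24 h replicate 1 these log2 fold changes were -3.74 for Myh6 and -4.36 for Myh7, and without 24 h replicate 2 they were -1.67 and -1.90. The light chain genes had log2 fold changes of 0.10 ± 0.99 SE (Myl2), -0.29 ± 0.83 (Myl3), -0.67 ± 0.80 (Myl4) and 0.11 ± 0.68 (Myl7), and Myh7b had -1.59 ± 0.86. By edgeR 0 of 7 passed, where 0.0958% of tested genes did. The 2 with an unadjusted p under 0.05 were both lower, against 9.12% of tested genes. DESeq2 called the same number, 2, where it called 1259 genes of the whole table, 843 of them lower. The libraries did not overlap for 2 of 7, Myh6 and Myh7, both lower, against 28.9% of tested genes. The signs of the light chain genes rest on single libraries: without 24 h replicate 1 all 4 were negative, with -2.27 for Myl2, -2.17 for Myl3, -2.24 for Myl4 and -1.43 for Myl7, and without 24 h replicate 2, Myl3 had 0.48 and Myl4 0.051. The authors' deposited table for 24 h against 0.5 h lists, for Myh6, a log2 fold change of -2.08 and, for Myh7, one of -2.27, and 3 of the 7 genes had an adjusted p under 0.05, all lower, as did 21.2% of the genes with an adjusted p in that table. In this and the authors' other tables each library is given as 2 splits in separate columns. Whether the authors' tests took splits as replicates was not examined, so their p-values may not rest on separate libraries.

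From 24 to 48 h all 7 myosin genes had a negative fold change and no overlap between the libraries, against 14.6% of tested genes that were lower without overlap. The 2 ventricular light chains had log2 fold changes of -5.41 ± 1.21 SE (Myl2) and -5.05 ± 0.99 SE (Myl3). Myl7 had -4.15 ± 0.79, Myh6 -3.47 ± 0.79, Myh7 -3.14 ± 1.01, Myl4 -2.78 ± 0.87 and Myh7b -1.74 ± 0.89. By edgeR 0 of 7 passed, as did 0% of tested genes (adjusted p 0.28 to 0.70). With an unadjusted p under 0.05 there were 6 of 7, all lower, against 5.34% of tested genes. DESeq2 called 6 of 7, where it called 507 genes of the whole table, 368 of them lower. Without 24 h replicate 1 the log2 fold changes were nearer to 0, at -3.05 for Myl2, -3.17 for Myl3, -2.62 for Myl7, -2.07 for Myh6, -1.51 for Myh7b, -1.42 for Myh7 and -1.22 for Myl4. Without 24 h replicate 2, Myl2 had -6.30 and Myl3 -5.86. Without 48 h replicate 2, Myl2 had -7.08 and Myl4 -4.11. The authors' deposited table for 48 h against 24 h gave negative values for all 7, each with an adjusted p under 0.05, as had 9.46% of the genes with an adjusted p in that table. Its order of the genes was another one, with -3.45 for Myl3, -3.05 for Myl7, -2.58 for Myh6, -2.53 for Myl2 and -1.53 for Myh7b.

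The comparison with vehicle exists at 0.5 h alone and rests on 1 DMSO library. Myh7 was at 2913 and 2373 CPM with rosiglitazone and 1307 CPM with DMSO (log2 fold change 1.02 ± 1.19 SE), and Myl2 at 505 and 543 CPM against 240 CPM (1.13 ± 1.28 SE). Values were 0.81 ± 1.05 for Myl3, 0.33 ± 0.89 for Myh6, 0.19 ± 0.98 for Myl4, 1.31 ± 1.09 for Myh7b and -0.50 ± 0.82 for Myl7. By edgeR 0 of 7 passed, where 0% of tested genes did, 0 had an unadjusted p under 0.05 against 0.607% of tested genes, and DESeq2 called 0. Both rosiglitazone libraries lay above DMSO for 5 of 7 (30.2% of tested genes) and below it for 1, Myl7 (31.8%). When only the 0.5 h libraries were fitted, with the spread taken from the 2 rosiglitazone libraries alone, Myl2 passed (log2 fold change 1.13, edgeR adjusted p = 0.011). In that fit 174 genes of the whole table passed, 142 of them lower. In the authors' deposited table for 0.5 h, Myl2 had a log2 fold change of 1.10, and 4 of the 7 genes had an adjusted p under 0.05, all higher, as had 5.07% of the genes with an adjusted p in that table. That table holds the 1 DMSO library as 2 split columns. The authors' standard error for Myl2 was 0.075, against 1.28 in the edgeR fit. In the same libraries, all 11 measured non-myosin cardiomyocyte genes were higher than in DMSO without overlap (summed level 11501 and 10969 CPM against 6617 CPM), and all 10 macrophage markers were lower (257 and 358 CPM against 917 CPM). The part of these differences in the myosin values was not tested.

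Ratios between the members within a library do not depend on its depth. The share of Myh7 among the counts of Myh6 and Myh7 together, whose proteins are of nearly the same length, was 57.6% in DMSO (95% exact binomial interval 57.2 to 58.0%). It was 70.6% and 66.3% in rosiglitazone at 0.5 h, 65.0% and 58.7% at 24 h, and 56.3% (52.4 to 60.2%) and 71.6% (69.0 to 74.1%) at 48 h. The replicates of 48 h thus lie at the lower and upper ends of the whole set. The mean log2 ratio of Myh7 to Myh6 was 0.78 ± 0.43 in the 4 libraries of 24 and 48 h and 0.89 ± 0.42 in the 3 libraries of 0.5 h (SD), a difference of -0.12 (two-sided exact permutation test over 35 arrangements, p = 0.686, where the smallest possible is 0.0571). The sign of this difference turned without rosiglitazone 0.5 h replicate 1 (0.070) and without 48 h replicate 1 (0.020). How reads that match both of these similar genes were counted is not given in the sources used here, and intervals cover counting error only.

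The ratio of heavy to light chain counts was lower in both 24 h libraries than in the others, a measure chosen after the data were seen and therefore given without a test. The summed counts of Myh6 and Myh7 over those of Myl2 and Myl3 had a ratio of 2.44 in DMSO and of 2.67 and 1.87 in rosiglitazone at 0.5 h. At 24 h the ratio was 0.405 and 0.582, and at 48 h 1.32 and 1.69. The summed myosin levels of the 24 h libraries were 4006 and 636 CPM, several-fold apart. The mean log2 ratio in the libraries of 24 and 48 h differed from that of the 3 libraries of 0.5 h by -1.43. The ventricular light chains over the atrial ones (Myl2 and Myl3 over Myl4 and Myl7) had a ratio of 6.37 in DMSO, 12.1 and 14.0 at 0.5 h, 15.1 and 10.2 at 24 h, and 3.51 and 4.20 at 48 h. Both 48 h libraries were the lowest in that ratio, and the mean log2 ratio of 24 and 48 h differed from that of 0.5 h by -0.57.

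**Figure D3:**
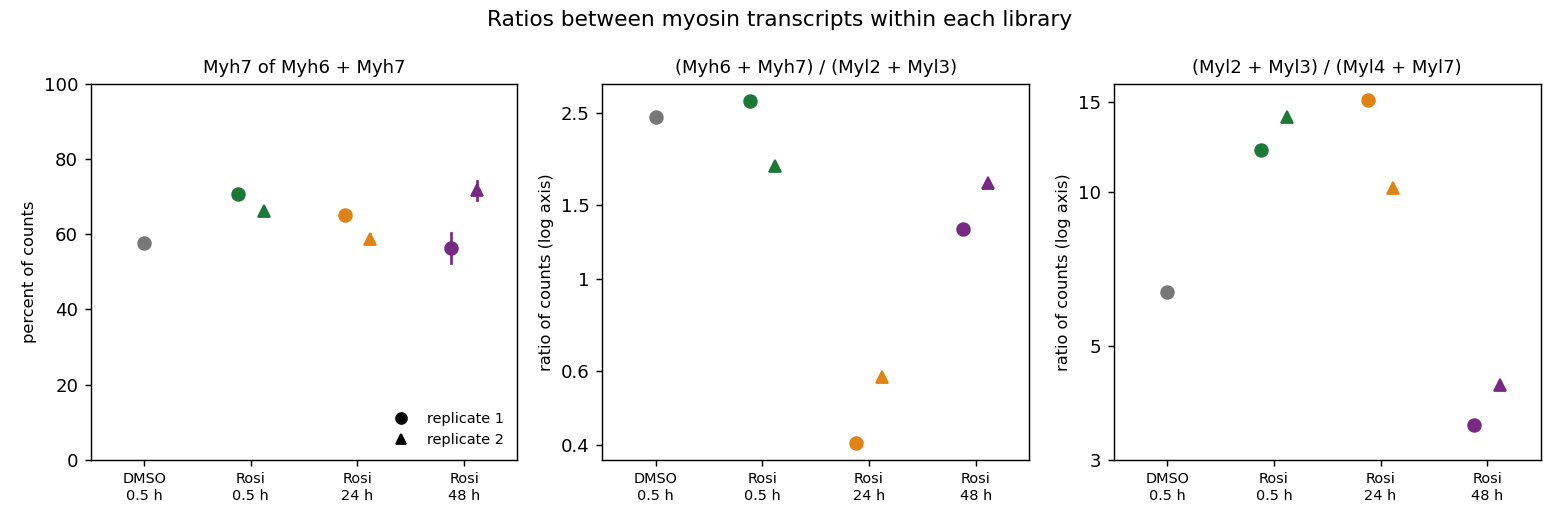
Ratios of counts between myosin genes in each of the 7 libraries, by group: the Myh7 share in percent with exact 95% binomial intervals, and the heavy to light chain and ventricular to atrial light chain ratios on log axes. The 24 h libraries are the lowest in the middle panel (0.405 and 0.582) and the 48 h libraries in the right one (3.51 and 4.20), while the Myh7 shares of the groups overlap.

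Other contractile genes of the same libraries also lay on either side of their 0.5 h level in replicate 1 of 24 h. In replicate 1 of 24 h the light chain genes were at 1.05 to 1.94 times their mean level at 0.5 h, and 5 of 11 non-myosin genes were above theirs as well: the troponin genes Tnni3 (2.53 times), Tnni1 (2.43), Tnnc1 (1.88) and Tnnt2 (1.49), which make the calcium switch of the thin filament, and the tropomyosin gene Tpm1 (1.03). The heavy chains were at 0.318 times (Myh6) and 0.271 times (Myh7), and the other 6 genes were also under their 0.5 h mean: Actc1, cardiac actin (0.346), Actn2, the Z-disc crosslinker (0.290), the calcium release channel gene Ryr2 (0.208), Tcap (0.164), Mybpc3 (0.547) and Csrp3 (0.560). In replicate 2 all 18 genes were under it, with Myh7 at 0.0487, Myh6 at 0.0747 and Actc1 at 0.0468 times, and the troponins between 0.369 and 0.624 times. Set against the median of the 11 genes in each library, the difference in log2 level between the 24 and 48 h libraries and those of 0.5 h was -2.22 for Myh6 and -2.33 for Myh7. It was -0.79 for Myl2, -0.89 for Myl3, -0.30 for Myl4, -0.29 for Myl7 and 0.40 for Myh7b. These differences pool times that were unlike. Relative to the same median, Myl2 averaged -0.06 at 0.5 h of rosiglitazone, -0.12 at 24 h and -1.76 at 48 h, and Myl3 1.13, 0.91 and -0.40 at these times. Myh6 averaged 1.14, -0.95 and -0.85, and Myh7 2.26, -0.25 and 0.0014. For Myh7b the values were -6.09, -6.56 and -4.77. The mean over the 7 was -0.92, and -0.33 when the mean of the 11 genes was used.

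**Figure D4:**
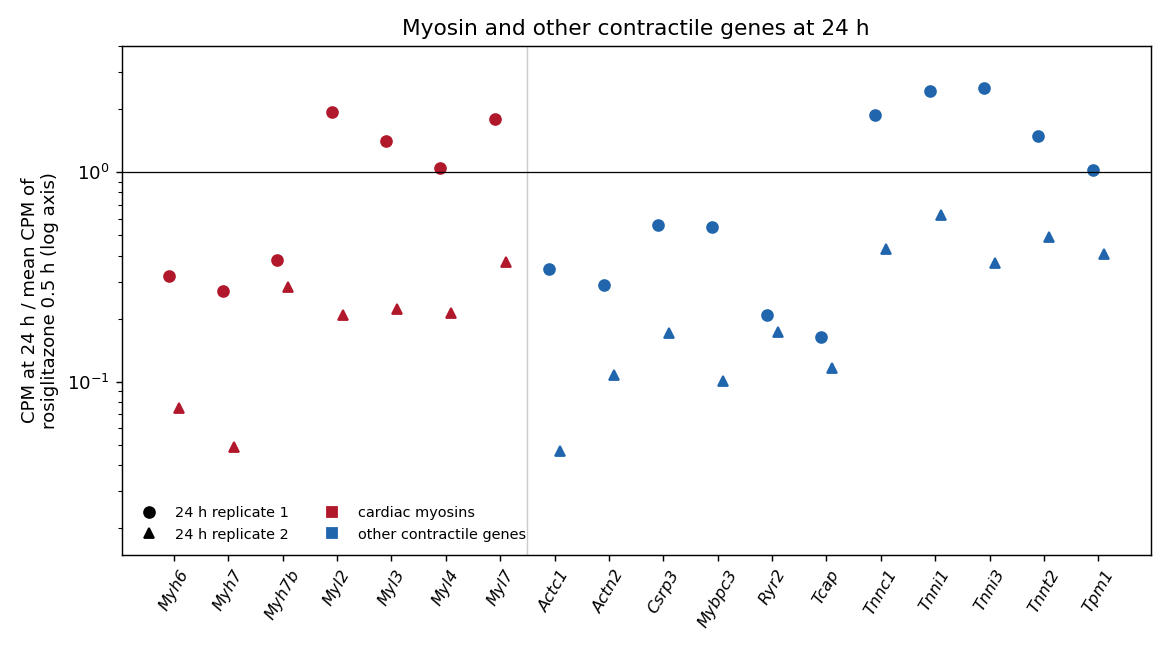
CPM in each 24 h library divided by the mean CPM of rosiglitazone at 0.5 h (log axis, line at 1) for the 7 cardiac myosin genes and 11 other contractile genes. In replicate 1 (circles) the 4 light chain genes, 4 troponins and Tpm1 lie at or above the line and the heavy chains, Actc1, Actn2, Ryr2 and Tcap well below it, and in replicate 2 (triangles) all lie below it.

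Of the 11 non-myosin contractile genes, 8 were called lower at 48 h than at 0.5 h and 0 higher, where 4.62% and 1.97% of tested genes were. The median log2 fold change of the 11 was -4.35, against -5.31 for the myosins. Those with the smallest p were Ryr2 (-4.46 ± 0.47 SE, edgeR adjusted p = 0.0072), Tcap (-5.17 ± 0.83, adjusted p = 0.017) and Actn2 (-4.64 ± 0.75, adjusted p = 0.017). The 8 calls became 0 without 48 h replicate 1, 1 without either rosiglitazone library of 0.5 h and 3 without 48 h replicate 2, and 7 or 8 without DMSO or a library of 24 h. In each of the other lists, markers included, the calls went down to between 0 and 2 without either rosiglitazone library of 0.5 h and to 0 without 48 h replicate 1. In bulk RNA, fewer cardiomyocytes and less of these transcripts per cardiomyocyte cannot be told apart.

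Among proteins that bind or fold myosin, 3 of 11 tested genes fell at 48 h and 0 rose, where 4.62% and 1.97% of tested genes did. Myom2 and Myom1, the M-band proteins that crosslink thick filaments, were at 1.13 and 3.53 CPM against 202 and 212 CPM (log2 fold change -6.55 ± 1.01 SE, edgeR adjusted p = 0.016) and at 9.55 and 20.4 CPM against 267 and 248 CPM (-4.12 ± 0.59, adjusted p = 0.015). Mybpc3, cardiac myosin-binding protein C, was at 4.32 and 25.3 CPM against 600 and 499 CPM (-5.24 ± 1.07, adjusted p = 0.035). Mybpc3 was also counted above among the non-myosin contractile genes called lower. The myosin chaperone gene of striated muscle, Unc45b, was at 6.84 and 32.5 CPM against 106 and 120 CPM (adjusted p = 0.089), and its general counterpart Unc45a at 113 and 124 CPM against 68.9 and 61.8 CPM (adjusted p = 0.089). Neither passed. Without 48 h replicate 2 the genes called lower in this list were 1, and without a library of 24 h they were 6 or 5 and 1 was called higher.

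Of 9 tested genes that phosphorylate or dephosphorylate the light chains, 3 fell and 0 rose, where 4.62% and 1.97% of tested genes did. Mylk3, the cardiac myosin light chain kinase, was at 4.61 and 24.9 CPM at 48 h and 167 and 172 CPM at 0.5 h (log2 fold change -3.54 ± 0.80 SE, edgeR adjusted p = 0.046). With 1 library left out, its log2 fold change ranged from -5.20 to -2.80. The smooth muscle kinase Mylk (-3.02 ± 0.60, adjusted p = 0.031) and the myosin phosphatase subunit Ppp1r12b (-2.55 ± 0.43, adjusted p = 0.020) fell as well. The catalytic subunit Ppp1cb was at 779 and 763 CPM against 606 and 642 CPM and the kinase Rock1 at 354 and 404 CPM against 332 and 308 CPM, with edgeR adjusted p of 0.54 and 0.63.

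Of 19 factors known to act on cardiac myosin genes, 4 fell and 1 rose at 48 h, where 4.62% and 1.97% of tested genes did. Myocd (myocardin), a coactivator of serum response factor, was at 1.21 and 0.837 CPM against 43.9 and 29.5 CPM (log2 fold change -5.13 ± 0.51 SE, edgeR adjusted p = 0.0066). Mef2c, a muscle transcription factor, was at 7.61 and 13.3 CPM against 81.4 and 80.8 CPM (-2.97 ± 0.40, adjusted p = 0.013). Tbx20, a cardiac T-box factor, was at 14.8 and 17.6 CPM against 155 and 152 CPM (-3.25 ± 0.53, adjusted p = 0.018), and at 24 h it was at 14.8 and 46.7 CPM. Hey2, a ventricular repressor of atrial genes, fell by 2.98 ± 0.49 on the log2 scale (adjusted p = 0.019). Nr2f1, a nuclear receptor expressed in the atria, rose to 22.3 and 65.9 CPM at 48 h, against 9.51 and 8.25 CPM at 0.5 h (2.31 ± 0.53, adjusted p = 0.048). Nr2f2, in the same list, went the other way, at 12.3 and 12.6 CPM against 32.7 and 31.7 CPM. Its log2 fold change of -1.37 ± 0.55 SE did not pass (edgeR adjusted p = 0.19). The thyroid hormone receptor gene Thra was at 44.7 and 80.6 CPM against 80.8 and 89.3 CPM (adjusted p = 0.59) and Gata4 at 138 and 141 CPM against 243 and 214 CPM (adjusted p = 0.15), so these did not pass. The genes called lower were 2 without 48 h replicate 2 and 9 or 10 without a library of 24 h, while of the 7 libraries left out in turn, the call of Nr2f1 was kept without those of 24 h and lost without each of the others, as it was with DESeq2 size factors.

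Of 7 tested smooth muscle and non-muscle myosin genes, 2 fell at 48 h and 0 rose, where 4.62% and 1.97% of tested genes did. These 2 were Myh11 (log2 fold change -3.38 ± 0.53 SE, edgeR adjusted p = 0.016) and Myl9 (-4.68 ± 0.80, adjusted p = 0.021), both of smooth muscle. The non-muscle heavy chain Myh10 was at 258 and 330 CPM against 911 and 559 CPM (adjusted p = 0.099). Of 5 tested skeletal muscle myosin genes 0 passed, with a median log2 fold change of -0.05, and 1 was called lower with DESeq2 or without either library of 24 h. Myh2 had the highest mean level of the 5. It was at 37.0 CPM in DMSO, at 11.2 and 5.27 CPM in rosiglitazone at 0.5 h and at 2.31 and 13.9 CPM at 48 h. Myh3, the embryonic skeletal heavy chain, was at 0 CPM in both 48 h libraries and at 2.64 and 1.24 CPM at 0.5 h (edgeR adjusted p = 0.11), Mylpf was at 0.512 and 0.744 CPM against 0.916 and 1.45 CPM, and Myh8 was under 1 CPM in every library.

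Several markers of other cells were lower at 48 h as well. The labels' protocol describes a nearly pure myocyte preparation, yet the 9 measured fibroblast markers summed to 51751 CPM in the DMSO library, 50175 and 51642 CPM in those of rosiglitazone at 0.5 h, 35139 and 32654 CPM at 24 h, and 17362 and 33667 CPM at 48 h. In the DMSO library most of this sum came from the collagen genes Col1a1 (26088 CPM) and Col3a1 (20161 CPM). For 48 h against 0.5 h, 1 of these 9 was called higher (Dcn, log2 fold change 2.85 ± 0.41 SE, edgeR adjusted p = 0.015) and 0 lower, with Col1a1 at 4750 and 10584 CPM against 26742 and 27690 CPM (adjusted p = 0.057) and Fap at 0.622 and 3.63 CPM against 19.3 and 14.4 CPM (adjusted p = 0.068). By fold change 3 of the 9 were higher and 6 lower. The 3 higher were Dcn, Lum and Pdgfra. Lum was at 639 and 1344 CPM against 450 and 582 CPM (edgeR adjusted p = 0.34). Pdgfra was at 474 and 722 CPM against 268 and 311 CPM (edgeR adjusted p = 0.089). Called lower were 5 of 10 smooth muscle markers, among them Cnn1 (-6.77 ± 1.04, adjusted p = 0.016), 4 of 9 endothelial ones, among them Kdr (-3.69 ± 0.58, adjusted p = 0.016), 4 of 8 epicardial ones, among them Krt8 (-3.15 ± 0.44, adjusted p = 0.014), and 2 of 10 macrophage ones, C1qc (-4.73 ± 0.70, adjusted p = 0.016) and Csf1r (-2.03 ± 0.37, adjusted p = 0.025). Of all tested genes, 4.62% were called lower and 1.97% higher. Of the 10 macrophage markers, 4 had a positive log2 fold change (Cd68 0.20, Lyz2 0.69, Adgre1 0.70 and Cd163 0.75) and 6 a negative one. None of these 4 passed the threshold. All measured smooth muscle, endothelial and epicardial markers had a negative fold change. The smooth muscle markers called lower include Myocd and Myh11, which were also counted in lists above. Myocd was counted there as a factor known to act on cardiac myosin genes. The summed levels at 48 h and 0.5 h were 387 and 1070 CPM against 5200 and 5094 CPM for smooth muscle, 218 and 210 CPM against 432 and 448 CPM for endothelium, 59.3 and 101 CPM against 362 and 378 CPM for epicardium, and 193 and 383 CPM against 257 and 358 CPM for macrophages. Without 48 h replicate 2, 0 endothelial, 2 epicardial, 1 macrophage and 4 smooth muscle markers were called lower, as were 2 of fibroblasts. No marker was at 0 in all libraries. The share of counts from the 13 protein genes of the mitochondrial genome was 2.13% in the DMSO library, 2.24% and 2.04% in those of rosiglitazone at 0.5 h, 3.29% and 0.801% at 24 h, and 0.900% and 0.604% at 48 h. Their share was higher in replicate 1 than in replicate 2 of 24 h, as were the levels of all 7 myosin genes and of the 11 non-myosin contractile genes. The part of cell composition and of RNA quality in the myosin levels was not tested.

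Over the 7 libraries, the genes most like the mean course of the myosins among 10092 with at least 5 CPM were Klhl23 and Fgf1, a fibroblast growth factor (Pearson r of log2 CPM 0.996 each), Trim72, a membrane repair protein of striated muscle (0.994), the receptor gene Epha4 and Mybpc3 (0.993 each). Trim72 was at 54.3 CPM in DMSO, 73.0 and 76.2 CPM in rosiglitazone at 0.5 h, 62.9 and 6.41 CPM at 24 h, and 0.549 and 2.32 CPM at 48 h. For single members the most alike were Shroom3 for Myh6 (0.997), Plat for Myh7 (0.997), Ppp1r12a for Myh7b (0.995), Tnnc1 for Myl2 (0.995), Mb, myoglobin, for Myl3 (0.995), Casq1, calsequestrin, for Myl4 (0.997) and Ckm, muscle creatine kinase, for Myl7 (0.994). Pearson r does not reflect the size of a change. Plat was at 280 and 282 CPM in rosiglitazone at 0.5 h and at 55.3 and 90.5 CPM at 48 h. Ppp1r12a was at 353 and 245 CPM and at 187 and 186 CPM at these times. Mb was at 99.3 CPM in DMSO, 121 and 168 CPM at 0.5 h, 336 and 19.4 CPM at 24 h, and 0.842 and 3.53 CPM at 48 h. These values describe 7 libraries that share their times and depths, and they were picked as the highest of many.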

How the data were processed

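RNA-seq was made from cultured neonatal rat ventricular myocytes. Per the labels' protocols, libraries came from a directional kit. Per the submitters' processing notes, FastQC 0.11.5, cutadapt 1.11, HTSeq and DESeq2 were used and the builds Rnor_6.0 and hg19 named; no source used here gives the aligner or strand setting. The authors deposited raw read counts per gene. Per the file headers, the 3 deposited tables also hold the authors' log2 fold changes with standard errors and adjusted p-values for 3 comparisons. Whether these took the splits of a library as replicates was not examined.

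The tables list 33005 rows for 32545 genes, and 460 repeated rows were dropped. The 14 samples are 7 libraries, each in 2 splits, which were summed and counted as 1 sample because they differed by about the sampling noise (ratio of chi-square to degrees of freedom 0.963 to 1.02, with p of at least 0.112). A count of 0 allows 3 counts, which is 0.107 to 0.276 CPM.

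Counts were tested with edgeR 4.0.16 in R 4.3.3 (TMM, its own low-count filter, robust quasi-likelihood, 4 groups in 1 fit, 15655 genes, 3 residual degrees of freedom), with Benjamini-Hochberg adjustment over all tested genes. All 7 members passed the filter. A lone library is assumed to vary like the other groups. Alternatives were DESeq2 1.42.0 or its size factors, no filter, splits as replicates or alone, a fit of just the compared groups, a replicate block, and leaving out each library. Correlations of replicate deviations between groups were -0.08, 0.06 and -0.12, so libraries of equal number showed no common offset. With 1 such deviation per group, these values cannot exclude that equal numbers share a pool or batch.

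The members and the 11 other gene lists were chosen with earlier results of these data known. Named are all members, up to 3 genes per list with the smallest p for 48 h against 0.5 h, and the genes most alike by Pearson correlation. Other genes were added after their values were seen: all contractile genes at 24 h, and Unc45a, Unc45b, Ppp1cb, Rock1, Hey2, Nr2f1, Thra and Gata4. Added in the same way were Nr2f2, Myh2, Col3a1, Lum, Pdgfra, Cd68, Lyz2, Adgre1 and Cd163. Listed genes without a row (Myh1, Myh4, Myh13, Ttn, Col1a2, Pecam1) were not analysed here, and Myh9, Myl6b, Mylk4 and Hsp90aa1 were listed at 0 counts.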

Additional observations from a re-analysis of the deposited data

How the results depend on the processing

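For 48 h against 0.5 h, the 5 calls among the 7 myosin genes became 2 with no filter on low counts (Myh6 and Myh7b) and 7 with the DESeq2 test, with splits as replicates or with only these groups in the fit. With the replicate number as a block 1 was called (Myh6, log2 fold change -5.78, edgeR adjusted p = 0.042). Whether equal numbers pair the libraries is not known. Leaving out 1 library gave 0 to 7 calls. For 24 h against 0.5 h, 0 calls became 2 with DESeq2 and 3 with splits as replicates. For 48 h against 24 h, 0 became 6 under either of these, and 0 to 3 with 1 library left out. For 0.5 h against DMSO, 0 became 1 with only these groups. The cause of these changes was not tested.

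Without rosiglitazone 0.5 h replicate 1, the log2 fold change of Myh7b was -0.52 against DMSO and 0.24 for 24 h against 0.5 h, and that of Myl7 -0.15 for 24 h. Without replicate 2 of that group, Myh7b had 2.09 and -2.37. For 24 h against 0.5 h, leaving out 24 h replicate 1 gave -2.27 for Myl2, -2.17 for Myl3, -2.24 for Myl4 and -1.43 for Myl7, and leaving out 24 h replicate 2 gave 0.94, 0.48, 0.051 and 0.82 for the same genes. The difference in the mean log2 ratio of Myh7 to Myh6, libraries of 24 and 48 h minus those of 0.5 h, ranged from -0.34 to 0.070 with 1 library left out, positive without rosiglitazone 0.5 h replicate 1 (0.070) and 48 h replicate 1 (0.020). The myosins relative to other contractile genes moved to -0.33 with the mean of that list. The same difference for the heavy to light chain ratio stayed negative, at -1.76 to -1.08 with 1 library left out, as did that for the ventricular to atrial ratio, at -0.95 to -0.24. DESeq2 size factors moved the median of all genes by -0.02 to 0.00 and changed no direction.

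Over the whole table, 0 genes were called against DMSO, 15 for 24 h over 0.5 h, 0 for 48 h over 24 h and 1031 for 48 h over 0.5 h. In this order, the counts became 2, 1259, 507 and 2569 with DESeq2, and 78, 5629, 2890 and 6943 with splits as replicates. They were 1, 334, 19 and 1265 with no filter, 174, 0, 0 and 2733 with only the groups compared, and 1 (24 h over 0.5 h) and 407 (48 h over 0.5 h) with the replicate block. With 1 library left out they ranged from 0 to 1008, 0 to 509 and 12 to 2706 for the last 3. The 2 libraries per time limit the precision, and depth was lowest for 48 h replicate 2, where Myh7b had 13 counts.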

Other observations

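Among the 21 pairs of cardiac myosin genes, the log2 CPM of Myl2 and Myl3 and of Myh6 and Myh7 ran most alike over the 7 libraries (Pearson r 0.995 and 0.991). Heavy chains against light chains had 0.903 to 0.972, and pairs with Myh7b 0.711 to 0.810. Myh7b was the one member with a more than 2-fold gap between the rosiglitazone libraries of 0.5 h, at 6.12-fold, and it had the smallest gap at 24 h, at 1.34-fold, where Myl2 had 9.31-fold. These are descriptions of libraries that share their times, with no test.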
